A study of Mus musculus with 9 samples.

Results

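The INK4 and CIP/KIP proteins are the cell's inhibitors of cyclin-dependent kinases (CDKs), and their 7 genes (Cdkn2a, Cdkn2b, Cdkn2c, Cdkn2d, Cdkn1a, Cdkn1b and Cdkn1c) were followed in alveolar macrophages with and without Suz12. The 7 genes were taken by family membership and matched by Entrez identifier to the deposited count table, in which they are 7 of 27179 genes, and all 7 passed the filter on low counts. Suz12 belongs to the core of Polycomb repressive complex 2 (PRC2), an enzyme complex that methylates histone H3 at repressed genes. The knockout group held 5 RNA sequencing libraries of Suz12 cKO (conditional knockout) alveolar macrophages, numbered KO1 to KO5, and the wild type group held 4, numbered WT1 to WT4. In both groups the cells were sorted by flow cytometry from lungs of C57BL/6 mice aged 1 week. The Cre driver, the cells it acts in, the deleted exons, the sex of the mice and any pooling of mice were not stated in the sources used. The series text calls the libraries biological replicates, and p-values measure the spread between them.

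INK4 proteins bind CDK4 and CDK6 and keep them from joining D-type cyclins, which leaves the retinoblastoma protein RB active and holds cells before S phase. CIP/KIP proteins bind assembled cyclin-CDK complexes, above all those of CDK2, and are set both by transcription and by ubiquitin-dependent breakdown. The Cdkn2a-Cdkn2b locus is a textbook target of Polycomb silencing, and alveolar macrophages maintain themselves in the lung by local division. Cdkn2a is read from separate first exons into shared downstream exons. One transcript encodes the INK4 protein p16 and the other encodes ARF (p19ARF in mouse), which binds MDM2 and stabilises p53.

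Suz12 stood at 11.9, 14.7, 21.8, 13.1 and 18.5 CPM (reads of a gene per 1000000 counted, scaled by TMM, a trimmed mean normalisation) in KO1 to KO5, against 67.5, 76.6, 51.7 and 70.7 CPM in WT1 to WT4. All knockout libraries were below all wild type libraries, by -2.06 on the log2 scale (SE 0.18, adjusted p = 1.69e-05 by edgeR's quasi-likelihood test). Libraries held 18584016 to 45606001 counts in knockout and 13814799 to 25284693 in wild type. Thinned to the smallest library, 14763 to 15891 genes had a count in knockout libraries and 12396 to 13310 in wild type libraries. All 12 alveolar macrophage markers examined were expressed in every library, and edgeR called 1 higher and 3 lower in knockout. Over all tested genes the shares were 8.97% higher and 11.0% lower, and for 20.7% the groups did not overlap. Marco was higher (0.54 on the log2 scale, adjusted p = 2.66e-04), and Fabp1 (-1.73, 0.013), Car4 (-0.96, 0.0172) and Krt79 (-0.53, 0.00334) were lower, each without overlap of the groups. The summed level of the 12, most of it Chil3, was 15600 to 42100 CPM in knockout and 23200 to 61500 CPM in wild type.

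The Cdkn2a-Cdkn2b locus lies on chromosome 4 of GRCm38, the assembly that mm10 represents, and its start sites are shown because Cdkn2a is the member with the largest log2 fold change and Cdkn2b its nearest relative on the chromosome. Cdkn2a spans positions 89274473 to 89294619 and Cdkn2b positions 89306289 to 89311032, a gap of 11670 bases. The ARF and p16 starts of Cdkn2a are 12461 bases apart in GENCODE vM21, and their transcripts share 575 of 1172 exonic bases (49.1%). The deposited count of Cdkn2a is a sum over the gene, so p16 and ARF transcripts could not be told apart. The windows below run from 250 bases before to 50 after each RefSeq start site, on the transcribed strand of GRCm38.p6, 5′ to 3′. Capitals mark matches to an E2F site (TTTCCCGC and its variants TTTCGCGC, TTTGCCGC and TTTGGCGC) or a GC box (GGGCGG), searched on both strands.
Cdkn2a, ARF start, chr4:89294570-89294869, minus strand: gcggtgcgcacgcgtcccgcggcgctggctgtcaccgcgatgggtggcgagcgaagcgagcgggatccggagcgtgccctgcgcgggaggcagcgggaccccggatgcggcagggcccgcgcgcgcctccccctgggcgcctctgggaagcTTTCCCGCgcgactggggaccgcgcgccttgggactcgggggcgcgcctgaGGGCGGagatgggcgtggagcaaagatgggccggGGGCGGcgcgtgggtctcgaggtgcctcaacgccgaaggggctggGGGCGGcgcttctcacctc
Cdkn2a, p16 start, chr4:89282143-89282442, minus strand: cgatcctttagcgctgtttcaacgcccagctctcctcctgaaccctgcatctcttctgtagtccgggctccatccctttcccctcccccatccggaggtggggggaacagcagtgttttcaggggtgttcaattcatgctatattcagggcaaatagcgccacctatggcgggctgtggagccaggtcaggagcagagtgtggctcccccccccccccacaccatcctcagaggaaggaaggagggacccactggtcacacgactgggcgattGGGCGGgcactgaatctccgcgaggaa
Cdkn2b, chr4:89310983-89311282, minus strand: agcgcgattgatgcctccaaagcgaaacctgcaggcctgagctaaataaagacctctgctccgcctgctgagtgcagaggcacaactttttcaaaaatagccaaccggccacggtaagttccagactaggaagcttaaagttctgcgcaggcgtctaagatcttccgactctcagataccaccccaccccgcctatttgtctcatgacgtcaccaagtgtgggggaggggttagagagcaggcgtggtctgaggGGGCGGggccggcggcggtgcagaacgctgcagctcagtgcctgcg

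The ARF window held 45 CpG dinucleotides, the p16 window 12 and the Cdkn2b window 18, against a median of 7 over 32851 mouse windows of the same length. Fewer CpG than in these windows were held by 98.1%, 60.4% and 70.3% of all windows, in the same order. The ARF window was the only one of 9 windows of the family with an E2F match, a motif found in 2.26% of all windows. GC boxes occurred in all 3 windows of the locus, in 7 of the 9 windows of the family and in 35.7% of all windows. The shares over all windows are not matched for base composition. The ARF window was 77.0% G or C, against a median of 52.7% over all windows. RefSeq windows were found for 6 of the 7 genes, and Cdkn1c was not matched.

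Cdkn1a, on chromosome 17 (positions 29090979 to 29100722), has a distal and a proximal start, shown because this gene was the most abundant of the family and rose in knockout. Capitals in the distal window mark matches to the p53 half-site consensus, and in the proximal window GC boxes (GGGCGG).
Cdkn1a, distal start, chr17:29090729-29091028, plus strand: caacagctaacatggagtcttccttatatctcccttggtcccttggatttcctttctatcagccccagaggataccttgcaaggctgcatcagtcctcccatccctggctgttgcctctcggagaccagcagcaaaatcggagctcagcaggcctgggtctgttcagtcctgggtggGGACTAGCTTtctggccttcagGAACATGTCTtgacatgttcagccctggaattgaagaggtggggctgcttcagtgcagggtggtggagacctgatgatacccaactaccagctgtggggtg
Cdkn1a, proximal start, chr17:29093519-29093818, plus strand: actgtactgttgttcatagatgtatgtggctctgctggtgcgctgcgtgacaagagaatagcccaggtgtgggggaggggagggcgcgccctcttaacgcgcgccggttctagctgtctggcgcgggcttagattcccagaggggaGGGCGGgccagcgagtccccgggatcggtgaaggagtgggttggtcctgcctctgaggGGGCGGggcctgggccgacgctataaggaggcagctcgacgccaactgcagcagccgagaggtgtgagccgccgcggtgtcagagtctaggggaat

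The distal window held 2 CpG dinucleotides and 2 p53 half-site matches, 73 and 51 bases before the start site at their 5′ ends. The proximal window held 23 CpG dinucleotides and 2 GC boxes. A p53 half-site was present in 8.36% of all windows, and among the family also in the Cdkn2d window, where it overlapped a GC box. No window of the family held a FOXO (GTAAACA) or AP-1 (TGANTCA) match, found in 3.65% and 7.81% of all windows, and 1 window, at a Cdkn2c start, held an E-box (CACGTG, 7.15% of all windows). These are matches of letters within the windows and were not tested for binding.

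Among the 7 inhibitors, Cdkn2a and Cdkn1a rose in knockout and the other 5 did not pass the test (edgeR quasi-likelihood, Benjamini-Hochberg adjusted p under 0.05 over 12840 genes). The 2 of 7 called higher stand beside 8.97% of all tested genes called higher, and the 0 of 7 called lower beside 11.0% called lower. At an unadjusted p under 0.05, 2 members were lower in knockout by edgeR, 3 by DESeq2 and 2 by limma-voom, and after adjustment none was called lower by any of these tools. The groups did not overlap for 2 of 7 members, against 20.7% of tested genes. These 2 were higher in knockout (10.9% of tested genes) and none was lower without overlap (9.88%). The median log2 fold change over the 7 was 0.10, against 0.04 over all tested genes.

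**Figure D1:**
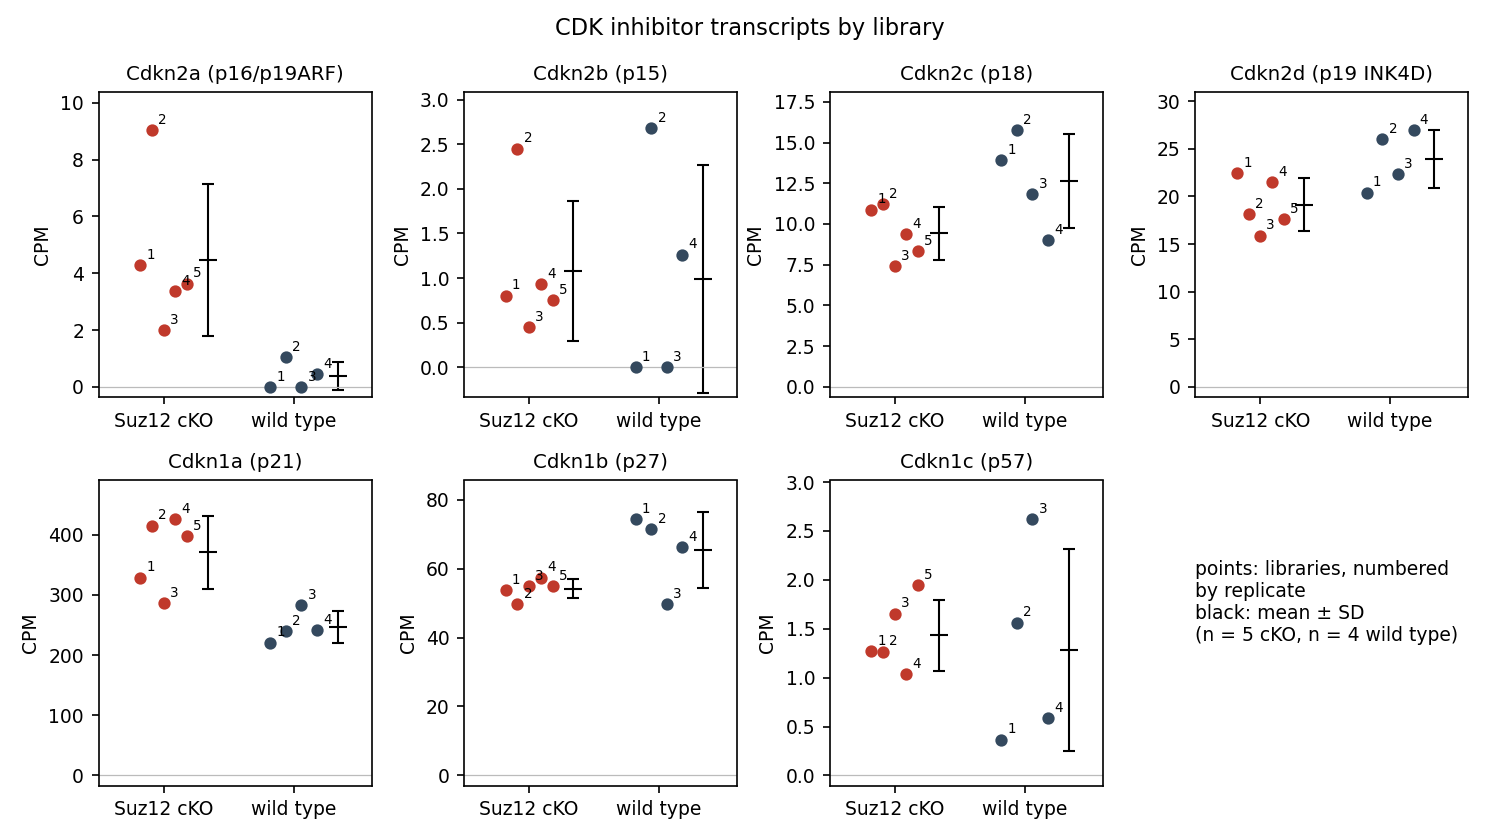
Levels of the 7 CDK inhibitor transcripts in CPM (y axis, linear, a separate scale per gene) in each Suz12 cKO and wild type library, with the mean and SD of each group in black. All 5 knockout libraries lie above all 4 wild type libraries for Cdkn2a and Cdkn1a, and the groups overlap for the other 5 genes.

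Cdkn2a, absent or at trace levels in wild type, was expressed at a low level in every knockout library. It stood at 4.29, 9.03, 2.0, 3.37 and 3.64 CPM in KO1 to KO5 (203, 335, 75, 65 and 174 reads), against 0, 1.04, 0 and 0.463 CPM in WT1 to WT4 (0, 26, 0 and 11 reads). Every knockout library was above every wild type library, and KO2 was the highest by more than 2-fold. The means were 4.46 ± 2.68 CPM in knockout (SD, n = 5) and 0.376 ± 0.494 CPM in wild type (SD, n = 4), which is 3.46 on the log2 scale (SE 0.88, edgeR adjusted p = 0.0126). Without KO2 the log2 fold change was 3.06 and no longer passed (adjusted p = 0.0502, over all alternatives 9.87e-05 to 0.0502 by edgeR, DESeq2 or limma-voom). WT2 held most of the wild type reads, and leaving it out gave a log2 fold change of 4.64. Since 2 wild type libraries had no read, 3 reads, the limit that a count of 0 allows, would be 0.137 CPM in WT1 and 0.238 CPM in WT3.

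Cdkn2b, which encodes the INK4 protein p15, did not pass the test. It stood at 0.803, 2.45, 0.454, 0.932 and 0.752 CPM in KO1 to KO5, against 0, 2.68, 0 and 1.26 CPM in WT1 to WT4. The wild type libraries lay on either side of all the knockout libraries, with WT2 above, WT4 among them, and WT1 and WT3 at 0 reads. The means were 1.08 ± 0.787 CPM in knockout (SD, n = 5) and 0.987 ± 1.28 CPM in wild type (SD, n = 4), and the log2 fold change of 0.10 had an SE of 1.09 (adjusted p = 0.962 by edgeR), too wide to exclude a change of severalfold either way.

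The balance of the neighbouring genes can be read within a library, without scaling between libraries. Cdkn2a gave 84.2%, 78.6%, 81.5%, 78.3% and 82.9% of the summed Cdkn2a and Cdkn2b reads in KO1 to KO5, against 28.0% in WT2 and 26.8% in WT4. The exact (Clopper-Pearson) 95% intervals ran from 67.9% to 88.9% over the knockout libraries, and they were 19.1% to 38.2% in WT2 and 14.2% to 42.9% in WT4. The wild type libraries with reads thus had Cdkn2b ahead of Cdkn2a (67 against 26 reads in WT2, 30 against 11 in WT4), and every knockout library had Cdkn2a ahead by 3.61 to 5.34 reads to 1. WT1 and WT3 had 0 reads of each gene and give no ratio. This ratio was computed after the counts were seen and is given without a test, and the intervals cover counting error only, since the reads carried no stated molecular identifiers. Reads of the noncoding Gm12610, which RefSeq places across Cdkn2b, could not be told apart from those of Cdkn2b.

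**Figure D2:**
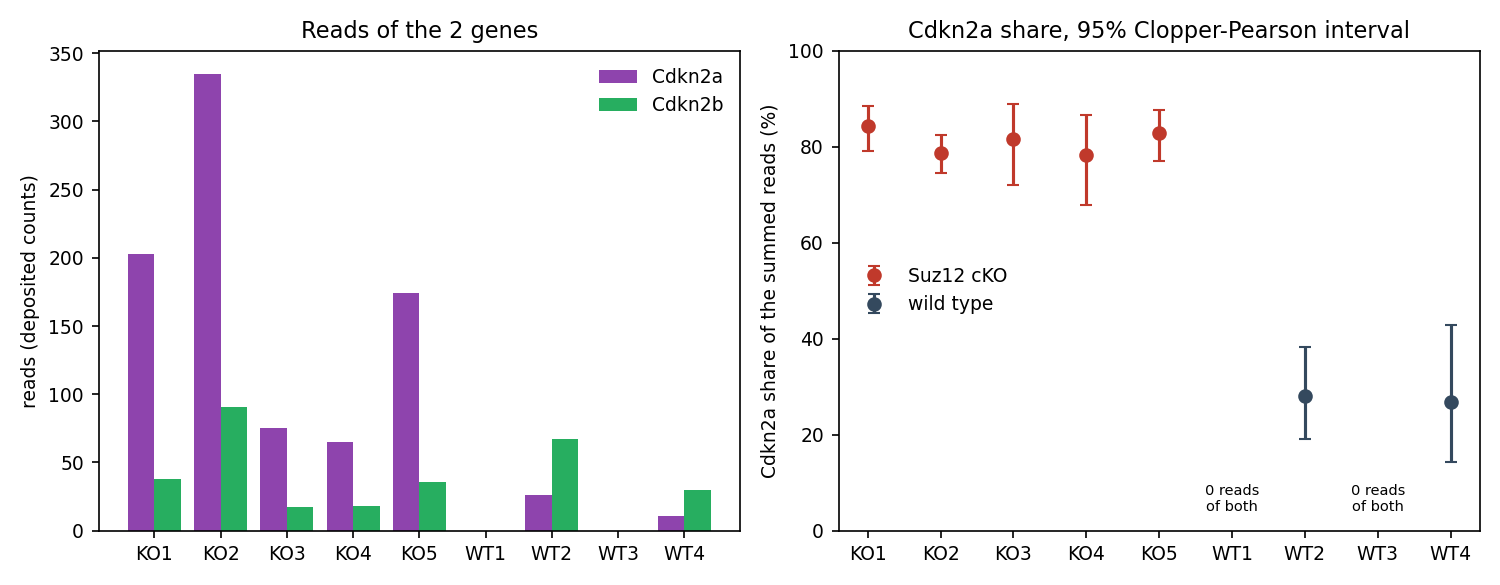
Left, deposited read counts (y axis) of Cdkn2a and Cdkn2b in each library (KO, Suz12 cKO; WT, wild type). Right, the share of Cdkn2a in the summed reads of the 2 genes in percent, with exact 95% intervals: 78.3% to 84.2% in the 5 knockout libraries, and 28.0% and 26.8% in the 2 wild type libraries that had reads.

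How often other genes of similar level had no read was measured beside the zeros of the locus, in ranges set by the knockout mean, which by itself makes zeros rare in knockout. Of 1004 genes with a knockout mean of 4 to 8 CPM, the range that holds Cdkn2a, 0.697% had 0 reads in WT1, 0.498% in WT2, 2.89% in WT3 and 0.996% in WT4, and none had 0 reads in any knockout library. Of 717 genes with a knockout mean of 1 to 2 CPM, the range that holds Cdkn2b, the shares were 10.9%, 13.8%, 32.1% and 16.2% in WT1 to WT4, against at most 0.418% in any knockout library. With every library thinned to the depth of WT3 the log2 fold change of Cdkn2a was 3.53 (adjusted p = 0.00836 by edgeR, within the range of alternatives above).

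Markers of other cells were present, several at summed levels above that of Cdkn2a. The 5 interstitial macrophage markers used (C1qa, C1qb, C1qc, Cx3cr1 and Lyve1) summed to 3.28 to 17 CPM in knockout and 3.1 to 8.85 CPM in wild type. All knockout libraries but KO3 were above all wild type libraries, and none of the 5 was called by edgeR. The 7 neutrophil markers summed to 56.9 to 180 CPM in knockout and 41.5 to 51 CPM in wild type, and the mast cell and basophil markers to 0.293 to 1.17 CPM in knockout and 0 to 0.0913 CPM in wild type, both without overlap. All 4 mast cell and basophil markers were too sparse to be tested. Most of their sum was Gata2 (means 0.366 CPM in knockout and 0.010 CPM in wild type) and Cpa3 (0.298 and 0.023 CPM). Of the neutrophil list edgeR called Csf3r higher (1.25 on the log2 scale, adjusted p = 0.00446) and none lower. S100a8 and Csf3r made up most of the neutrophil sum. The other 3 tested markers did not pass, with S100a8 (0.89) and S100a9 (0.72) higher in knockout and Retnlg lower (-1.88). Ly6g and Mpo averaged 0.0042 and 0.025 CPM in knockout and had 0 reads in wild type. The 5 monocyte markers summed to 41 to 103 CPM in knockout and 100 to 140 CPM in wild type, and Spn was called lower (-0.55, edgeR adjusted p = 0.0245). The erythroid markers summed to 23.5 to 311 CPM in knockout and 24.6 to 116 CPM in wild type, and the epithelial markers to 10.3 to 56.6 CPM in knockout and 11.5 to 33.5 CPM in wild type, with none called by edgeR. The 7 fibroblast markers summed to 4.17 to 9.66 CPM in knockout and 0 to 6.37 CPM in wild type, and the 6 endothelial markers to 4.54 to 6.63 CPM in knockout and 1.05 to 4.81 CPM in wild type, with 4 and 3 of them tested and none called by edgeR. Cnn1 of smooth muscle, Elane of neutrophils and Fcer1a of mast cells had no read in any library. The part of other cells in the Cdkn2a, Cdkn2b and Cdkn1c reads was not tested, and in bulk RNA more expressing cells and more RNA per cell cannot be told apart.

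The remaining INK4 genes had lower means in knockout without passing the test. Cdkn2c, which encodes p18, stood at 10.9, 11.2, 7.40, 9.38 and 8.32 CPM in KO1 to KO5, against 13.9, 15.7, 11.8 and 9.01 CPM in WT1 to WT4. WT1 to WT3 were above all knockout libraries and WT4 was within their range, and the log2 fold change was -0.42 (SE 0.21, adjusted p = 0.177 by edgeR). Cdkn2d, which encodes the INK4 protein p19, unrelated in sequence to ARF, stood at 22.5, 18.2, 15.9, 21.5 and 17.6 CPM in KO1 to KO5, against 20.4, 26.0, 22.3 and 26.9 CPM in WT1 to WT4. The groups overlapped, and knockout was at -0.32 on the log2 scale (SE 0.14, edgeR adjusted p = 0.137). After a correction for gene length the log2 fold changes of Cdkn2c and Cdkn2d were -0.18 and -0.13.

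Cdkn1a, which encodes p21, the CIP/KIP protein induced by p53, was the abundant member and rose moderately. It stood at 329, 415, 287, 426 and 398 CPM in KO1 to KO5, against 221, 240, 283 and 241 CPM in WT1 to WT4. All knockout libraries were above all wild type libraries, with KO3 and WT3 nearly touching at 286.8 and 283.2 CPM. The means were 371 ± 60.4 CPM in knockout (SD, n = 5) and 246 ± 26.3 CPM in wild type (SD, n = 4), which is 0.59 on the log2 scale (SE 0.12, edgeR adjusted p = 0.00331). The call held in all 18 alternatives, with log2 fold changes of 0.54 to 0.71 and adjusted p of 1.39e-04 to 0.0177 by edgeR, DESeq2 or limma-voom.

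Cdkn1b, which encodes p27, a brake of quiescent cells, was close to uniform in knockout and spread in wild type. It stood at 53.8, 49.7, 55.0, 57.4 and 54.9 CPM in KO1 to KO5, against 74.4, 71.4, 49.8 and 66.3 CPM in WT1 to WT4. WT3, the shallowest library, lay with the knockout libraries and the other 3 wild type libraries above all of them. The log2 fold change was -0.28 (SE 0.11, adjusted p = 0.108 by edgeR), and without WT3 it was -0.37 and passed as lower in knockout (adjusted p = 0.0107, over all alternatives 0.0107 to 0.369 by edgeR, DESeq2 or limma-voom).

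Cdkn1c, which encodes p57 and is an imprinted gene expressed from the maternal allele, was low in every library, with 20 to 93 reads in knockout and 8 to 39 reads in wild type. It stood at 1.27, 1.27, 1.66, 1.04 and 1.94 CPM in KO1 to KO5, against 0.365, 1.56, 2.62 and 0.589 CPM in WT1 to WT4. The knockout values lay inside the wild type range, and the log2 fold change of 0.18 had an SE of 0.65 (adjusted p = 0.881 by edgeR). Its sign changed without WT1 or WT4 and with libraries thinned to equal depth, so no direction is given.

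**Figure D3:**
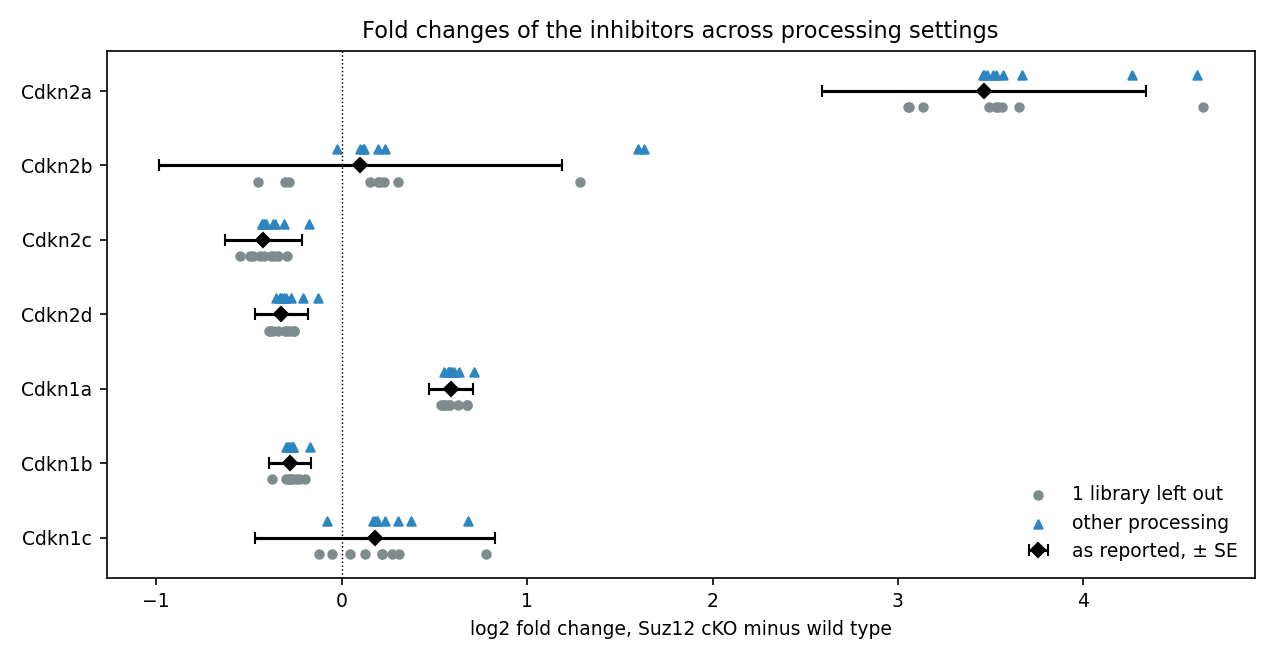
Log2 fold change of each CDK inhibitor, Suz12 cKO minus wild type (x axis), as reported with its SE (diamonds), with 1 library left out (circles) and under the other processing alternatives (triangles). Cdkn2a and Cdkn1a stay above 0 and Cdkn2c, Cdkn2d and Cdkn1b below 0 in every setting shown, while Cdkn2b and Cdkn1c fall on either side of 0.

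Compared per length of transcript, as CPM per kilobase (RPKM, computed from the deposited lengths), the family was dominated by Cdkn1a in both genotypes. Cdkn1a averaged 183 RPKM in knockout and 122 RPKM in wild type, and Cdkn1b 22.5 RPKM in knockout and 27.2 RPKM in wild type. Cdkn2d averaged 15.1 RPKM in knockout and 18.8 RPKM in wild type, and Cdkn2c 8.53 RPKM in knockout and 11.4 RPKM in wild type. Cdkn2a followed at 3.93 RPKM in knockout and 0.331 RPKM in wild type, then Cdkn2b at 0.774 RPKM in knockout and 0.708 RPKM in wild type, and Cdkn1c at 0.738 RPKM in knockout and 0.662 RPKM in wild type. The ranges of Cdkn2b and Cdkn1c overlapped in both groups, those of Cdkn2a overlapped them in wild type and overlapped those of Cdkn2c in knockout, and those of Cdkn1b and Cdkn2d overlapped in wild type.

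Within the summed RPKM of the 7 genes the share of Cdkn1a was 77.8 ± 2.39% in knockout (SD, n = 5) and 67.2 ± 4.49% in wild type (SD, n = 4), with the lowest knockout library at 74.7% and the highest wild type library at 73.5%. The INK4 genes together held 12.1 ± 1.79% in knockout and 17.3 ± 2.16% in wild type. Among them Cdkn2c and Cdkn2d held 10.1 ± 1.52% of the pool in knockout and 16.7 ± 1.53% in wild type, and Cdkn2a held 1.63 ± 0.846% in knockout and 0.180 ± 0.234% in wild type. Cdkn1b held 9.77 ± 1.62% in knockout and 15.2 ± 3.11% in wild type. The summed level was 235 ± 32.6 RPKM in knockout and 181 ± 9.53 RPKM in wild type. These shares describe the make-up of the pool and were not tested. They are parts of the same sum, so a larger share of Cdkn1a leaves smaller shares for the other genes.

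**Figure D4:**
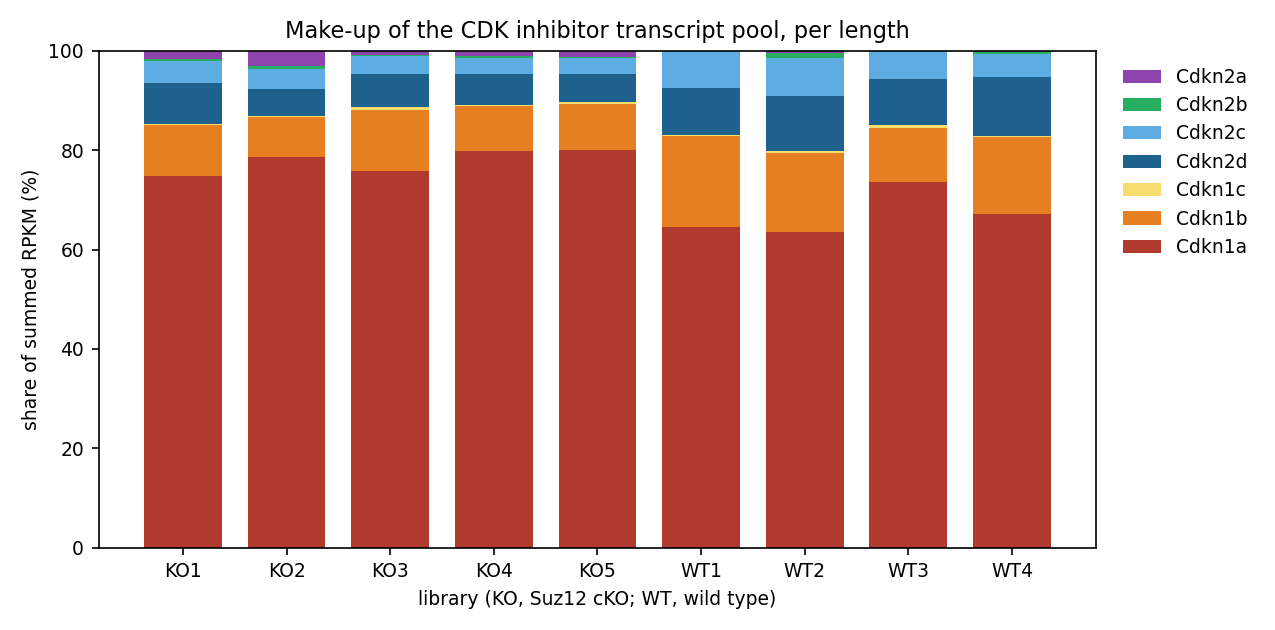
Share of each CDK inhibitor in the summed RPKM of the 7 genes (y axis, percent) in each Suz12 cKO (KO) and wild type (WT) library. Cdkn1a fills 74.7% to 80.0% of the bar in knockout libraries and 63.5% to 73.5% in wild type libraries, and Cdkn2a is visible at the top of the knockout bars, up to 3.05% in KO2.

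Genes of the surrounding pathway were called about as often as other genes. Over 5 lists, with 72 tested, 7 were higher and 8 lower in knockout by edgeR, against 8.97% and 11.0% of all tested genes (19.9% in either direction), and the median log2 fold change was -0.05. With libraries scaled by their totals alone 13 were higher and 5 lower, and after the length correction 4 were higher and 9 lower. Of the 15 genes called none changed sign in any alternative.

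Among 12 tested cyclins and CDKs, the kinases the inhibitors act on and their partners, 1 was higher and 3 were lower. Of all tested genes 8.97% were higher and 11.0% lower. Ccnd2, the most abundant D-type cyclin here per length, rose to 398 ± 28.8 CPM in knockout (SD, n = 5), against 303 ± 22.2 CPM in wild type (SD, n = 4), or 0.39 on the log2 scale (SE 0.08, edgeR adjusted p = 0.00398). Cdk1, the mitotic kinase, fell to 46.7 ± 9.10 CPM in knockout, against 75.5 ± 8.84 CPM in wild type (-0.69 on the log2 scale, SE 0.14, edgeR adjusted p = 0.00321). Its partners Ccnb1 (-0.56) and Ccnb2 (-0.39) were lower by narrow margins, with adjusted p of 0.0312 and 0.0257 by edgeR. Ccnb1 lost the call without any one of 6 libraries (all but KO1, WT2 and WT4) and Ccnb2 without any one of 5 (KO2, KO5, WT1, WT2 and WT4), with adjusted p of up to 0.0823 and 0.075, and Ccnb2 after the length correction (0.166). With library totals alone neither passed (adjusted p = 0.0845 for Ccnb1 and 0.129 for Ccnb2 by edgeR). The INK4 targets Cdk4 and Cdk6, chosen after their values were seen, stood at -0.18 (SE 0.12) and -0.40 (SE 0.18) on the log2 scale and did not pass (adjusted p = 0.346 and 0.147 by edgeR).

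None of the 13 genes of the RB family and E2F factors, which RB restrains, was called by edgeR, against 19.9% of all tested genes. At an unadjusted p under 0.05, 2 were higher and 1 lower by edgeR, and after adjustment DESeq2 called 2 higher and limma-voom 1. E2f4, the most abundant of them per length, stood at 65.0 ± 5.15 CPM in knockout and 55.8 ± 7.40 CPM in wild type (0.22 on the log2 scale, SE 0.11, edgeR adjusted p = 0.162). None of the 10 genes of the ARF-MDM2-p53 axis was called by edgeR, DESeq2 or limma-voom, and at an unadjusted p under 0.05 edgeR gave 0, DESeq2 1 lower and limma-voom 1 higher. Npm1, a nucleolar partner of ARF and the most abundant of them per length, stood at 218 ± 19.2 CPM in knockout and 232 ± 25.9 CPM in wild type (log2 fold change -0.09). Trp53 (0.02, SE 0.09) and Mdm2, itself a p53 target (0.21, SE 0.10), named after their values were seen, had adjusted p of 0.928 and 0.178 by edgeR.

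Of 22 tested transcriptional regulators of the inhibitor genes, 4 were higher and 1 lower, beside 8.97% and 11.0% of all tested genes. The regulators called included the largest log2 fold changes of the 15 pathway genes called. Ets2, an ETS factor known to activate Cdkn2a, rose to 204 ± 34.1 CPM in knockout, against 76.0 ± 18.9 CPM in wild type (1.42 on the log2 scale, SE 0.17, edgeR adjusted p = 1.38e-04). Bmi1, a subunit of Polycomb repressive complex 1 and a known repressor of the Cdkn2a locus, stood at 74.3, 91.2, 64.9, 87.0 and 80.2 CPM in KO1 to KO5, against 32.3, 47.2, 44.0 and 46.0 CPM in WT1 to WT4. All knockout libraries were above all wild type libraries for Ets2 and Bmi1, and the log2 fold change of Bmi1 was 0.91 (SE 0.13, adjusted p = 3.47e-04 by edgeR).

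Kdm6b, an H3K27 demethylase, was higher at 90.2 ± 18.2 CPM in knockout, against 61.0 ± 14.3 CPM in wild type (0.57, adjusted p = 0.0292 by edgeR). Dmtf1, an activator of ARF transcription, was higher (0.42, adjusted p = 0.0499 by edgeR) and Cebpa, a myeloid factor that raises p21, was lower (-0.32, adjusted p = 0.0357 by edgeR). Each of these 3 lost the call without any one of 5 libraries, which were KO2, KO5, WT1, WT2 and WT4 for Kdm6b, KO1, KO2, KO5, WT1 and WT2 for Dmtf1, and KO2, KO4, KO5, WT2 and WT4 for Cebpa, with adjusted p of up to 0.0876, 0.129 and 0.113. Cebpa lost it with library totals alone (0.158), and Kdm6b and Dmtf1 lost it after the length correction (adjusted p = 0.0987 and 0.0786 by edgeR).

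Factors that break down or localise CIP/KIP proteins gave 2 higher and 4 lower of 15, beside 8.97% and 11.0% of all tested genes. Skp1, the adaptor of the SCF ubiquitin ligase that degrades p27, fell to 114 ± 10.3 CPM in knockout, against 185 ± 22 CPM in wild type (log2 fold change -0.69, SE 0.10), and Pcna, the replication clamp that binds p21, to 177 ± 20.2 CPM in knockout, against 270 ± 25.3 CPM in wild type (-0.61, SE 0.10), with adjusted p of 2.89e-04 and 7.45e-04 by edgeR. Rbx1, the RING subunit of that ligase, fell by 0.48 and Cks1b, the cofactor for p27 recognition, by 0.63 on the log2 scale, and the scaffold Cul1 rose by 0.33 (adjusted p = 0.0065, 0.0103 and 0.0111 by edgeR). Cks1b is a short gene of 757 bases, and after the length correction its log2 fold change was -0.20 and did not pass (adjusted p = 0.276 by edgeR). Ubac1, a subunit of another p27 ligase, was higher at the margin (0.39, adjusted p = 0.0443 by edgeR) and lost the call without any one library other than WT3, with adjusted p of up to 0.112. Reads of Skp1, Pcna and Npm1 may be split with processed copies of these genes elsewhere in the genome.

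**Figure D5:**
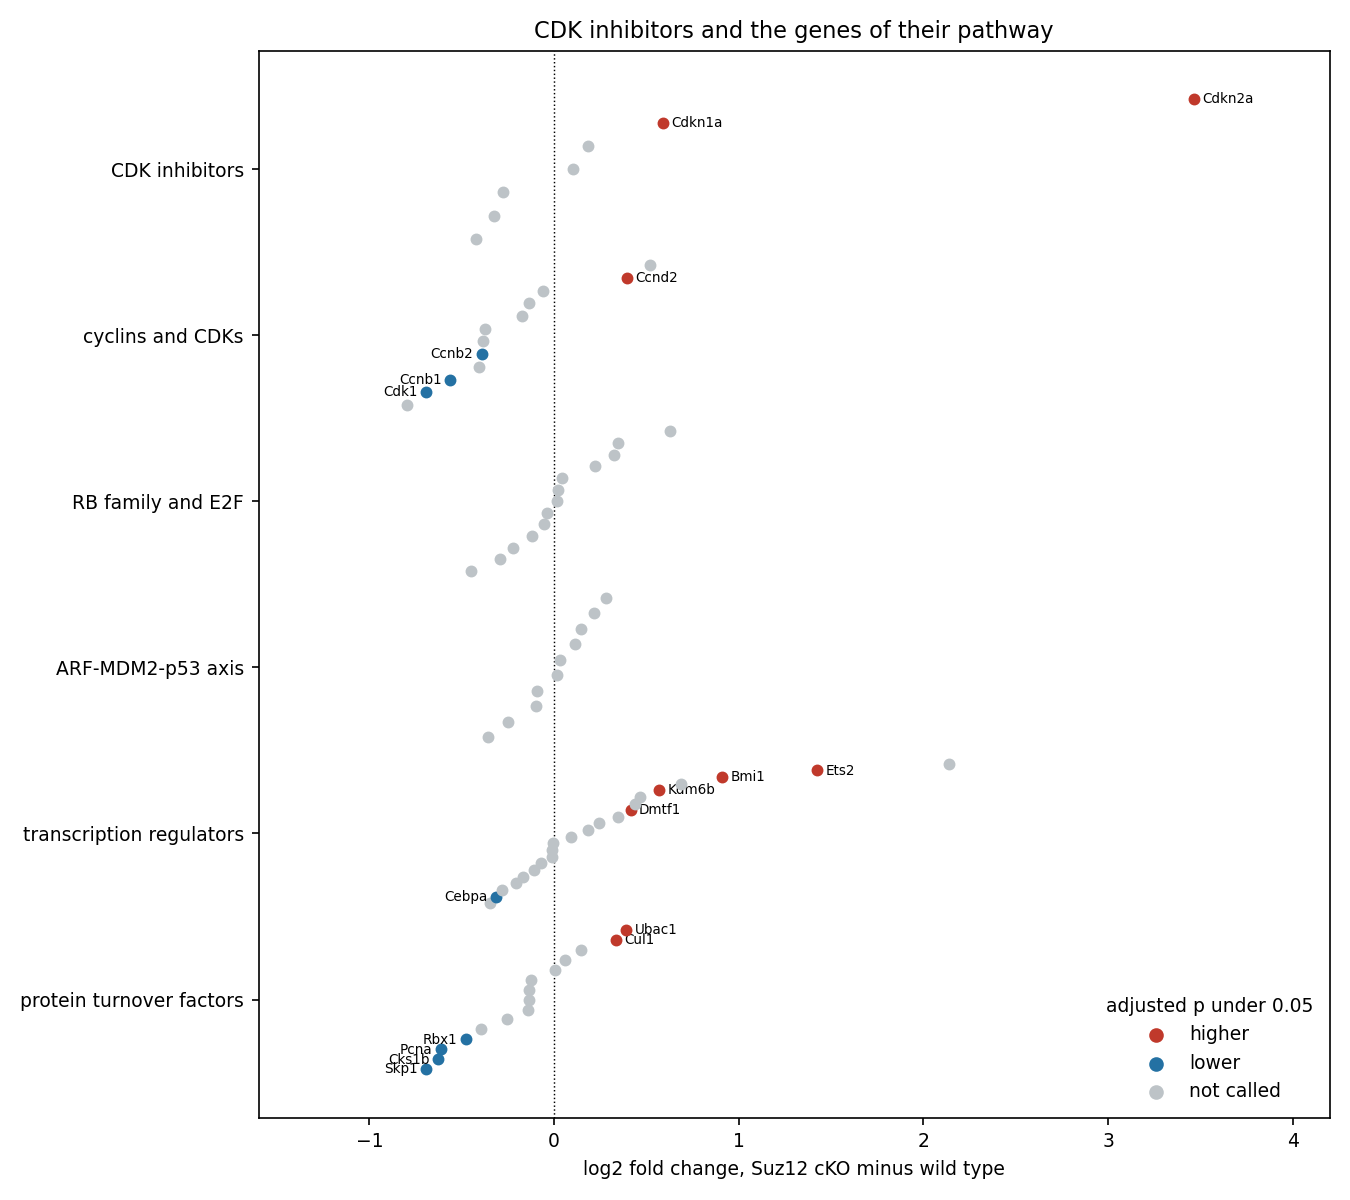
Log2 fold change, Suz12 cKO minus wild type (x axis), of each tested gene in the 7-member inhibitor family and in 5 lists of pathway genes (rows), coloured by the edgeR call. Cdkn2a (3.46), Ets2 (1.42) and Bmi1 (0.91) lie farthest to the right among the genes called, and no gene of the RB and E2F or the ARF-MDM2-p53 lists is coloured.

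Within 100 kb of the 7 genes RefSeq places 43 other genes, 27 of them in the count table and 21 tested, of which 2 were higher and 0 lower by edgeR, beside 8.97% higher and 11.0% lower of all tested genes. Mtap, 93383 bases from Cdkn2a, stood at 44.8 ± 3.98 CPM in knockout and 45.7 ± 6.04 CPM in wild type (-0.03 on the log2 scale, SE 0.11, edgeR adjusted p = 0.894). Faf1, 9871 bases from Cdkn2c, was higher (0.39, SE 0.13, adjusted p = 0.0422 by edgeR), although not with the length correction (0.126) or without any one of KO1, KO2, KO4, KO5, WT2 and WT4 (up to 0.0994), and Stk38, 82969 bases from Cdkn1a, was higher (0.31, SE 0.08, adjusted p = 0.014 by edgeR).

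Trp53cor1, the noncoding RNA known as lincRNA-p21 beside Cdkn1a, had 13, 2, 16, 11 and 16 reads in KO1 to KO5, against 0 reads in each wild type library, and was too sparse to be tested. How many equally sparse genes show this pattern was not computed. At equal depth more genes had a count in knockout libraries (14763 to 15891) than in wild type libraries (12396 to 13310). The untested endothelial markers Emcn and Tek and the untested regulator Tbx3 showed the same pattern. Kdr, also an untested endothelial marker, had reads in both groups. RefSeq also places the noncoding Gm12610 across Cdkn2b. It was not among the counted genes, and since the strand setting of the counting is not given, its reads and those of Cdkn2b could not be told apart.

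Profiles over the 9 libraries were compared by the mean absolute difference of standardised log2 CPM, in SD, over 10205 genes whose log2 CPM averaged at least 1. Standardising leaves out the size of a change, and how near a gene would lie by chance was not tested. The profiles of Cdkn2a and Cdkn2b include WT1 and WT3, which had 0 reads of both. Nearest to Cdkn2a were Lats1 (0.0934 SD), a kinase of the Hippo pathway, and Septin6 (0.119 SD), a cytoskeletal GTPase, and nearest to Cdkn1a were Rasgef1b (0.119 SD) and Tent5c (0.170 SD). Septin6, Rasgef1b and Tent5c were called higher (log2 fold changes 0.76, 1.02 and 2.09, adjusted p = 0.0179, 0.0186 and 0.00649 by edgeR), and Lats1 was not (0.30, adjusted p = 0.0501). Without WT1 Septin6 did not pass (adjusted p = 0.0521 by edgeR). Rasgef1b and Tent5c each lost the call in 1 alternative, and in none of those that only left out a library. Nearest to Cdkn2b was Spopl (0.162 SD), to Cdkn2c the mitotic kinase Ttk (0.216 SD), to Cdkn2d Tmem43 (0.184 SD) and then the cyclin Ccne1 (0.191 SD), to Cdkn1b Grpel2 (0.223 SD) and to Cdkn1c Adrm1 (0.242 SD).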

How the data were processed

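Polyadenylated RNA of sorted alveolar macrophages was sequenced in 5 knockout and 4 wild type libraries. Whole-number counts per gene, with gene lengths, were deposited by the authors in 1 table of all libraries and 9 single tables, and all 9 held the same counts as the joint table, which was used. Reads were counted with featureCounts on mm10, per the submitters' processing notes. No source used here names the aligner, the annotation or whether strand was used. RefSeq (GRCm38.p6) named 25275 of 27179 identifiers, including all 7 members.

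Knockout was compared with wild type in R 4.3.3 by the edgeR 4.0.16 quasi-likelihood test (robust, TMM scaling, filterByExpr, no covariate) on 12840 genes, with Benjamini-Hochberg adjustment at 0.05. The procedure was also run on simulated counts as a check of the code, which does not bear on the call of any single gene. The SE of a log2 fold change was derived from the test statistic. Log2 CPM used a prior count of 2. Promoter windows are RefSeq's. The members and lists were chosen with earlier results of these data known. Named genes were all members and up to 6 called genes of each pathway list (its most abundant member per length where none was called). Of the RefSeq genes within 100 kb and the 2 nearest profiles per member only some are named, with their values known. Any other gene is named after its values were seen. A marker gene of the lists is not reported here and is left out of its list's sum and counts.

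Alternatives were RLE size factors, library totals alone, DESeq2 1.42.0, limma-voom (limma 3.58.1), no filter, a filter of at least 1 CPM in 4 libraries, a gene length correction (loess on log2 length of the deviations in log2 CPM, span 0.5, each curve centred to keep TMM scaling), thinning to equal depth, the replicate number as a block, and leaving out each library. The block fit left out KO5, whose number no wild type library shares.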

Additional observations from a re-analysis of the deposited data

How the results depend on the processing

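Of 233 comparisons of 13 results with 18 alternatives, 212 kept their direction and side of the threshold or a count within 1.5 times. Leaving out 1 library gave log2 fold changes of 3.05 to 4.64 for Cdkn2a, -0.45 to 1.29 for Cdkn2b, -0.37 to -0.20 for Cdkn1b and -0.12 to 0.78 for Cdkn1c, 1 to 2 members called higher (1 without KO2), 0 to 1 called lower (1, Cdkn1b, without WT3), 772 to 1434 genes called higher of all tested, and 4 to 10 pathway genes higher and 5 to 9 lower. Direction reversed without WT1 or WT4 for Cdkn1c (-0.12 and -0.05) and without KO2, WT1 or WT3 for Cdkn2b (-0.45, -0.30 and -0.28), and after thinning to equal depth for Cdkn1c (-0.077) and Cdkn2b (-0.027), none of them called. The cause was not tested. With library totals alone the median log2 fold change of all genes moved up by 0.114, 1966 genes were higher and 1013 lower (66% of calls higher, against 45% with TMM), and 13 pathway genes were higher and 5 lower. DESeq2 called 1753 genes higher, and after the length correction 4 pathway genes were higher. Cdkn2b did not pass the stricter filter and has no value there. Deviations of same-numbered libraries of the groups correlated at -0.10 to 0.15, and for number 4 the best wild type match was its own. These correlations cannot show whether libraries were paired. With the replicate block, which leaves out KO5, 741 genes were higher and 1121 lower, with Cdkn2a at 4.26 and Cdkn1a at 0.55. Leaving out KO5 without a block gave 777 higher and 1100 lower. Depth limits Cdkn2a, Cdkn2b and Cdkn1c, which had at most 39 reads in wild type libraries apart from the 67 of Cdkn2b in WT2.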
